A study of Solanum lycopersicum with 32 samples.

Results

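The genes described here are 42 rows of the tomato stem count tables, of 34728 gene rows in all, that stood lower in each of 4 settings labelled with an added florigen source than in their controls. Members were chosen from the measured values. Counts were scaled to the library total as CPM, the standard depth-corrected count, averaged per group as log2(CPM + 1), and a row was kept where the difference of group means was -0.4 or less in all 4 settings. Of 44 such rows, 2 were dropped by the rule (Solyc03g020030 and Solyc03g020040), which left 42. The first 2 settings were stems labelled pSFT-SFT against stems titled sft, and 35S:SFT//sft grafts against sft//sft grafts. The other 2 were 35S:SFT//WT grafts against WT//WT grafts, and heated plants with a heat-inducible FT gene against heated sft plants. These 4 contrasts share no library, and the differences in them are a description of how the members were chosen, not a finding.

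Florigen is the mobile signal that triggers flowering. In Arabidopsis it is the FT protein, made in leaf veins and carried in the phloem to the shoot apex, where it works with 14-3-3 and bZIP proteins to switch on flowering genes. In tomato the corresponding gene is SINGLE FLOWER TRUSS (SFT), its antagonist is SELF PRUNING (SP), and florigen also acts outside the apex, on stems and leaves. The series title places these stem samples in the question of how florigen affects vascular maturation and secondary walls. The files name genes only by Solyc identifiers, and the reference gene table matched 0 of them, so no member is given a name, a function or a sequence.

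Stem RNA was sequenced in 32 libraries, 2 for each of 16 groups in 5 experiments, and 16 of the libraries were used by the rule. Overexpression groups were wild type (WT), sft (named sft in the titles and SFT in another label field) and pSFT-SFT (titled pTFT). Grafts, written in the order of the genotype labels, were WT//WT, sft//sft (titled with a wt partner), 35S:SFT//sft, 35S:SFT//WT and 35S:SFT//sp. The titles name the partners of the 35S:SFT grafts in the opposite order, as in sp//SFT. The heat-shock experiment held sft mutants with and without pHS:FT, a heat-inducible Arabidopsis FT transgene, each treated or untreated, so all its plants carry the sft mutation. From the FUL experiment came stems of WT and of plants with 35S:SFT or 35S:TFUL2, and from the Ginkgo experiment 35S:GinFT stems, with no WT. Per the labels' protocols, 5 plants were selected, and a sample was made of 5 segments from the middle of internodes, taken 2 hours after dawn. The tissue could not be checked against marker genes because the identifiers carry no names. The 35S promoter drives a gene strongly in nearly all tissues. Plant age, heat dose, the side of the graft that gave the stem and the number of transgenic lines behind each label are not stated in the sources used, nor whether the duplicate stem samples, which the protocol calls independent, were taken from separate plants. The p-values below therefore reflect the spread between duplicates, which may be technical.

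Total counts lay between 16583755 and 45790153 reads per library, and a gene with 0 reads could have stood at up to 0.0655 to 0.181 CPM with 3 reads as the limit, for counting error only. The row tied by published knowledge to SFT (Solyc03g063100) stood at 64 and 59.9 CPM in 35S:SFT stems, while their WT had 0 reads, but at 1.02 and 1.24 CPM in the libraries labelled pSFT-SFT, below their WT at 2.78 and 2.23 CPM. SFT transcript thus did not bear out the pSFT-SFT label, and every direction given for that group is that of the libraries so labelled. The row tied in the same way to FUL2 (Solyc03g114830) stood at 1488 and 1155 CPM in 35S:TFUL2 stems and 2.3 and 4.57 CPM in their WT. It was also higher in the libraries labelled pSFT-SFT, at 15.1 and 19.7 CPM against 0.398 and 0.494 CPM in sft, and in heated pHS:FT stems, at 6.5 and 4.94 CPM against 0.705 and 0.475 CPM in heated sft. Reads on the row of the Arabidopsis FT transgene numbered 57 and 70 in heated and 1 and 1 in unheated pHS:FT plants. Of the libraries labelled sft without pHS:FT, the heated pair had 0 and 0 such reads and the unheated pair 12 and 0, so the row goes against the label in unheated sft replicate 1.

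The members were lower by a median of 1.23 on the log2(CPM + 1) scale in the libraries labelled pSFT-SFT against sft, with a range of differences from -4.30 to -0.45. In 35S:SFT//sft against sft//sft the median difference was -0.70 and the range -1.52 to -0.42. In 35S:SFT//WT against WT//WT the median was -0.79 and the range -1.73 to -0.40. In heated pHS:FT against heated sft the median was -0.70 and the range -2.01 to -0.45. The deepest of the 4 differences was the one against sft in the overexpression experiment for 22 members, in the heat-shock contrast for 9, in WT grafts for 8 and in sft grafts for 3. A difference of -1 or less, that is a halving on this scale, was met by 24, 8, 13 and 12 members in the 4 contrasts in the order given above. The threshold was met by 7.75%, 2.14%, 3.12% and 4.42% of all rows in the same order, 210 rows met it in exactly 3 contrasts and 44 in all 4. Both libraries of the lower group lay below both of the other for 41 members in the overexpression contrast, 37 in sft grafts, 39 in WT grafts and 36 in the heat-shock contrast, where the share of all rows was 22.5%, 13.2%, 14.3% and 17.5%. Because the rule used these contrasts, nothing is read from these counts. In bulk stem RNA, fewer cells of a type and less RNA per cell cannot be told apart.

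**Figure D1:**
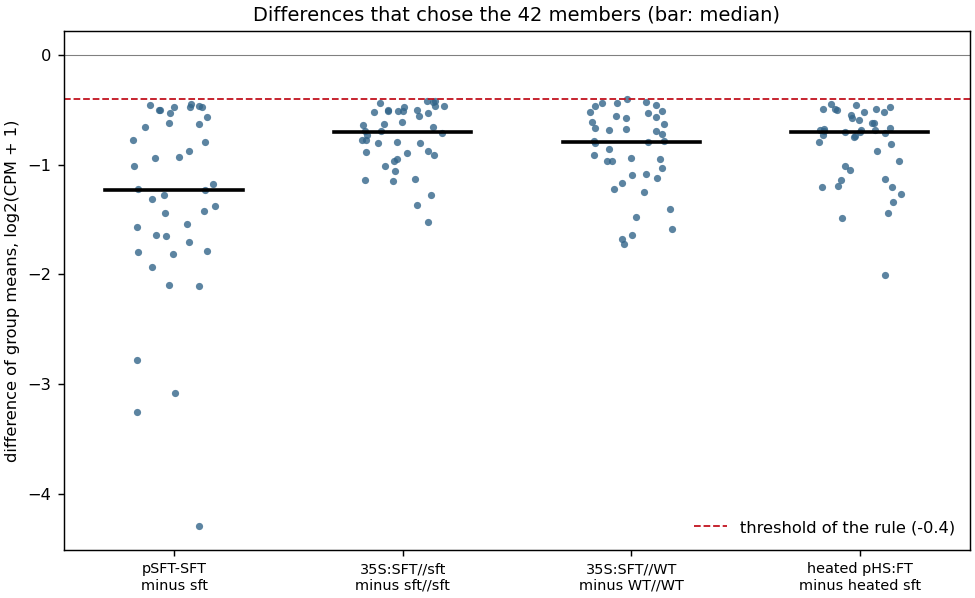
Each point is 1 of the 42 members, the vertical axis is its difference of group means in log2(CPM + 1), and the columns are the 4 contrasts of the rule. Medians lie at -1.23, -0.70, -0.79 and -0.70, and the dashed line is the threshold of -0.4 that all points lie at or under by choice.

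Solyc09g014580 had the deepest difference of any member, and the lowest mean over the 4 contrasts (-1.75). It stood at 1.86 and 1.85 CPM in the libraries labelled pSFT-SFT, at 38.2 and 79.1 CPM in sft and at 38.4 and 52.6 CPM in WT. The first pair lay far below the other 4 libraries, and sft and WT overlapped. Its graft levels were lower throughout, at 11.4 and 14.7 CPM in sft//sft and 3.78 and 11.1 CPM in 35S:SFT//sft, so that the lowest control stood barely above the highest 35S:SFT//sft library. In WT grafts its groups overlapped, at 3.73 and 8.19 CPM in WT//WT and 1.29 and 6.22 CPM in 35S:SFT//WT.

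Solyc01g098720 had the second largest difference against sft among members with a mean of 4 CPM or more, at 6.47 and 6.22 CPM in the libraries labelled pSFT-SFT and 54.6 and 86.9 CPM in sft. Its WT level was 56.9 and 57.4 CPM, within the range of the sft libraries. In heated plants it stood at 9.34 and 11.3 CPM with pHS:FT and 17.7 and 17.7 CPM without, and these groups did not overlap.

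Solyc12g087940 had the largest difference both in sft grafts (-1.52) and in the heat-shock contrast (-2.01). In grafts it stood at 4.37 and 16.1 CPM in 35S:SFT//sft and 32.3 and 21.8 CPM in sft//sft. Levels were 8.76 and 4.98 CPM in 35S:SFT//WT and 15.8 and 15.4 CPM in WT//WT. All 4 of these libraries with a 35S:SFT partner except replicate 2 of 35S:SFT//sft were below every control graft. Among heated plants it stood at 1.35 and 3.08 CPM with pHS:FT and 22.1 and 5.74 CPM without, where the 2 sft libraries were themselves far apart.

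Among members with a mean of 4 CPM or more, Solyc10g074440 had the second largest difference in sft grafts (-1.15) and in WT grafts (-1.68). It stood at 5.8 and 8.48 CPM in 35S:SFT//sft against 15.7 and 18 CPM in sft//sft, and at 10.2 and 10.3 CPM in 35S:SFT//WT against 32.5 and 38 CPM in WT//WT. The groups did not overlap in either graft contrast, and WT//WT was above sft//sft. Solyc07g005100 had the largest difference in WT grafts (-1.73), at 7.85 and 8.89 CPM in 35S:SFT//WT against 20.5 and 43.6 CPM in WT//WT, with the WT//WT libraries wide apart.

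Solyc08g074680 was second in the heat-shock contrast (-1.49), at 6.77 and 9.11 CPM in heated pHS:FT against 26.6 and 21.4 CPM in heated sft plants. It was also lower by at least 1 on the log2(CPM + 1) scale in each other contrast of the rule. Solyc04g008230, the member with the highest mean CPM (151 over all 32 libraries, not corrected for length), was lower by 0.48, 0.51, 1.10 and 0.70 in the 4 contrasts. It stood at 96.2 and 82 CPM in 35S:SFT//WT against 196 and 187 CPM in WT//WT, groups that lay well apart, but at 277 and 183 CPM against 312 and 315 CPM in the overexpression contrast, where the first 2 libraries differed widely.

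**Figure D2:**
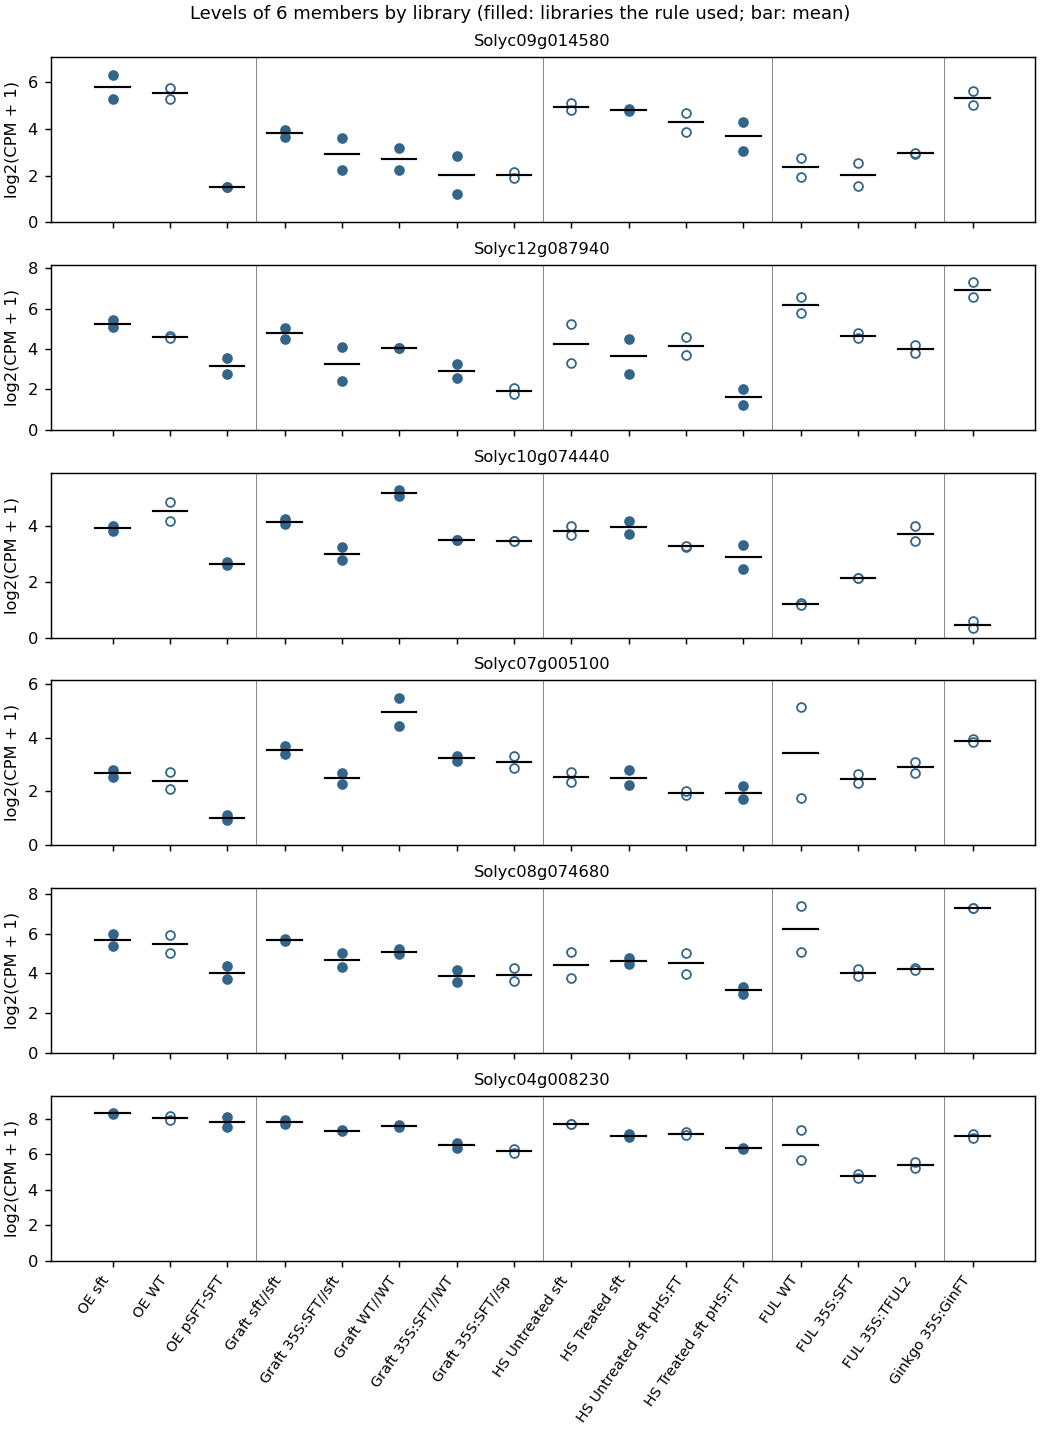
Levels of 6 members in each library, as log2(CPM + 1), with groups in columns by experiment (OE, overexpression; HS, heat shock) and lines between experiments; filled points are libraries the rule used and bars are means of 2 libraries. Solyc09g014580 is low in the libraries labelled pSFT-SFT (1.86 and 1.85 CPM) and Solyc12g087940 in heated pHS:FT (1.35 and 3.08 CPM), while the WT libraries of the FUL experiment differ widely for Solyc07g005100 and Solyc08g074680.

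Beside the threshold, Solyc04g005710 was just inside, with a largest difference of -0.4019 (in WT grafts), and Solyc12g006770 was just outside, with -0.3997 in the same contrast. Membership rested on single libraries: with 1 of its 16 libraries removed at a time, the rule kept between 29 and 69 rows, and 6 of the 42 members were kept whichever library was left out, Solyc12g087940, Solyc10g074440 and Solyc08g074680 among them. The 29 rows were those without replicate 1 of 35S:SFT//sft and the 69 those without its replicate 2, and the members' mean log2(CPM + 1) was 2.47 and 2.83 in these libraries. Without any other of these libraries the count stayed within 1.5 times of 42. In heated pHS:FT stems, 38 of 42 members were higher in replicate 2, the library with the fewest reads, than in replicate 1 (median difference 0.48).

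Over all 32 libraries the members' mean CPM ran from 0.22 to 151 with a median of 7.5, against a median of 19.6 CPM over the 19143 rows with a mean of 1 CPM or more. Of the members, 28 had a mean of 4 CPM or more and 2 had under 1 CPM. The chromosome number in the identifier was 4 for 6 members, and 1, 8, 9, 10 and 12 for 5 members each, with the other 11 on 2, 3, 5, 6, 7 and 11. The members were thus spread over all 12 chromosomes, with 14.3% on chromosome 4 (7.9% of all rows) as the highest share. At 4 members, both libraries of at least 1 group held 0 reads. Solyc05g021180, named after its values were seen, held 0 reads in the libraries labelled pSFT-SFT and stood at 5.76 and 5.96 CPM in sft. With 3 reads per library taken as the limit, sft was at least 58.7-fold higher. On the log2(CPM + 1) scale, sft minus WT of the same experiment was -0.32, and pSFT-SFT minus that WT was -3.10. Solyc05g021180 also held 0 reads in WT, 35S:SFT and 35S:GinFT stems of the FUL and Ginkgo experiments. WT of the FUL experiment minus WT of the overexpression experiment was -3.10, so groups labelled WT differed as much as pSFT-SFT and WT did.

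**Figure D3:**
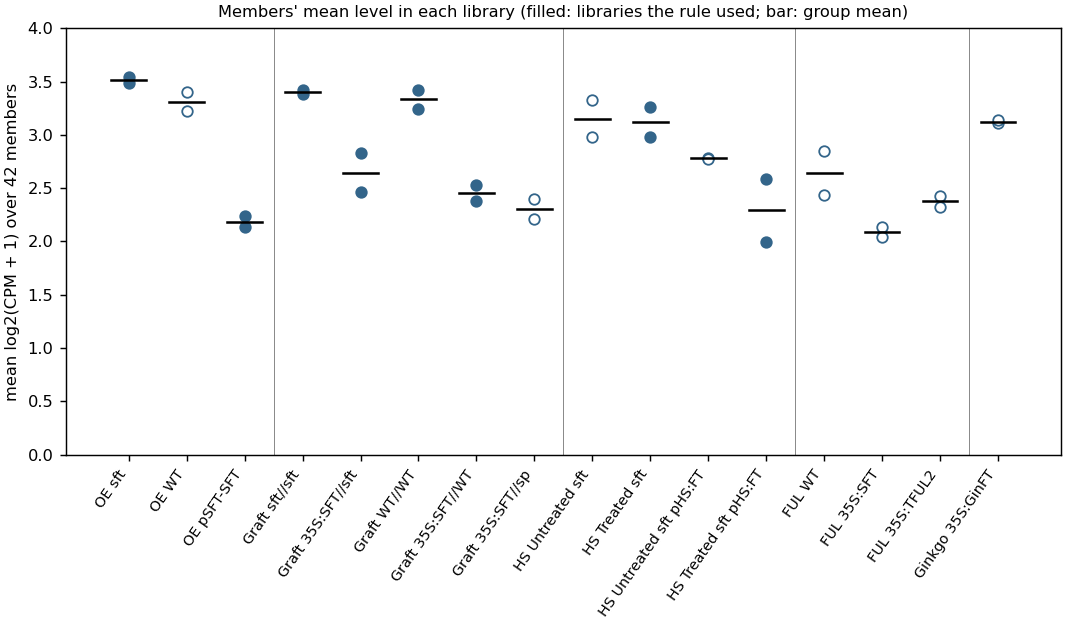
Each point is 1 library, the vertical axis is the mean log2(CPM + 1) over the 42 members, bars are means of 2 libraries, and filled points are libraries the rule used. The libraries labelled pSFT-SFT stand at 2.24 and 2.13, the WT of the same experiment at 3.22 and 3.40, and 35S:SFT//sp grafts at 2.40 and 2.21.

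Wild-type stems of the overexpression experiment were not used by the rule, but the sft and pSFT-SFT libraries beside them chose the members. That choice sets these groups apart and so favours a WT level between them. The counts here only describe where WT stood, and the share of all rows between them was not computed. The WT mean lay between both for 32 of 42 members and above sft for the other 10, and was at or below the pSFT-SFT mean for 0. Among the 32, it was nearer sft for 24 and nearer the pSFT-SFT level for 8. The libraries labelled pSFT-SFT were below WT at all 42 members (median difference -0.96), and sft was above WT at 32 and below at 10 (median 0.20). In the control grafts, sft//sft was above WT//WT at 30 members and below at 12, with a median of 0.18. These differences share libraries with the rule, so they are described without a test.

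Grafts labelled 35S:SFT//sp, whose sp partner carries a mutant SP, were not used by the rule either. The members' mean log2(CPM + 1) was 2.40 and 2.21 in 35S:SFT//sp, 2.38 and 2.53 in 35S:SFT//WT, and 3.25 and 3.42 in WT//WT. All 42 members were lower in 35S:SFT//sp than in WT//WT, by a median of 1.02, and 39 of them had a difference of -0.4 or less, where 6.13% of rows with a mean of 1 CPM or more did. The WT//WT libraries are those that chose the members, so no test was made. Against 35S:SFT//WT, the 35S:SFT//sp grafts were lower at 26 members and higher at 16, with a median difference of -0.13.

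In unheated stems, libraries labelled pHS:FT stood lower than those labelled sft at 34 of 42 members, with a median log2 fold change of -0.48 against -0.00064 over all 20546 genes tested. None of these 4 unheated libraries was used by the rule, but heated libraries of the same genotypes were. A difference between these genotypes that is present with and without heat would enter both contrasts, and this was not tested. No member passed the test in edgeR, where the smallest adjusted p was 0.391 at Solyc05g021180, and 0% of all genes were called lower. DESeq2 called 2 members lower and 0 higher, where it called 0.066% of all genes lower and 0.361% higher. At an unadjusted p under 0.05, 9 of 42 members were lower and 0 higher, against 3.1% and 3.94% of all genes. Both unheated pHS:FT libraries lay below both unheated sft libraries for 21 members, against 25% of all genes, and above for 1, against 13.4%. Solyc05g021180 stood at 3.92 and 2.31 CPM in unheated pHS:FT and 8.5 and 10.6 CPM in unheated sft plants, and Solyc04g008230 at 150.3 and 133 and 205 and 208 CPM. The groups did not overlap for either, though neither difference passed the test. The FT row held only 1 and 1 reads in the unheated pHS:FT libraries. The sft library with 12 FT reads was replicate 1, and without it the median over members was -0.30.

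The effect of heat shares the heated libraries with the rule and is given as a description. In sft plants, 21 members were lower and 21 higher in heated than in unheated stems, with a median difference of 0.02. In pHS:FT plants, 35 were lower and 7 higher, with a median of -0.38, beside a median of 0.05 over rows with a mean of 1 CPM or more. Solyc12g087940 stood at 11.9 and 23.3 CPM in unheated and 1.35 and 3.08 CPM in heated pHS:FT plants, groups that did not overlap. Its sft libraries stood at 36.8 and 8.89 CPM unheated and 22.1 and 5.74 CPM heated, and overlapped.

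The FUL experiment holds ungrafted stems in which 35S drives SFT, and none of its libraries was used by the rule. Of 38 members that passed the read filter over the whole experiment, edgeR called 2 lower and 0 higher in 35S:SFT than in WT, where 0.943% of all genes were called lower and 0.793% higher. At an unadjusted p under 0.05, 18 members were lower and 2 higher, against 10.8% and 9.94% of all genes. One of the 38, Solyc05g021180, had 0 reads in all 4 libraries compared, and 1 other passed the filter only through its WT level. The median log2 fold change of the tested members was -0.61, against 0.00046 over all 21312 genes tested. This median was -1.04 without 35S:SFT replicate 1, and between -1.04 and -0.71 when each of the 4 libraries was left out in turn. The read filter was applied anew each time, so the genes tested were not the same (21923 without 35S:SFT replicate 1). The range is therefore not a spread around -0.61. Both 35S:SFT libraries lay below both WT libraries for 20 of the 38 (24.7% of all genes) and above for 4 (30% of all genes).

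Solyc12g005430 stood at 2.44 and 1.53 CPM in 35S:SFT against 7.58 and 8.52 CPM in WT and fell by 2.03 on the log2 scale (SE 0.26, edgeR adjusted p = 0.032). Solyc04g074810 stood at 8.57 and 8.74 CPM against 21.4 and 29.1 CPM and fell by 1.55 (SE 0.16, edgeR adjusted p = 0.017). For both, the groups lay well apart, and the members above WT in 35S:SFT, Solyc10g074440 among them, did not pass the test. Neither call held without either 35S:SFT library or with only both groups in the fit, and that of Solyc12g005430 was also lost without WT replicate 2. Over all 9 alternatives, adjusted p ranged from 8.24e-07 to 0.149 for Solyc12g005430 and from 9.38e-11 to 0.148 for Solyc04g074810.

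The WT libraries of the FUL experiment stood apart from each other at some members. At 11 members the 2 WT libraries differed by at least 1 on the log2(CPM + 1) scale, against 0 in 35S:SFT and 0 in 35S:TFUL2. The share of all rows was not computed. Over genes with 100 reads or more, chi-squared per degree of freedom between duplicates was 38.5 in WT, 10.6 in 35S:SFT and 20.7 in 35S:TFUL2. A spread particular to the members is thus not shown. Solyc07g005100 stood at 2.35 and 33.8 CPM and Solyc08g074680 at 32.3 and 169 CPM in the WT libraries. Without WT replicate 1, the lower of the 2, edgeR called 15 members lower and 1 higher in 35S:SFT, where 3.51% and 2.61% of all genes were called. DESeq2 with all libraries also called 15 lower and 1 higher, where 4.06% and 3.09% of all genes were called. Without 35S:SFT replicate 1 or 2 edgeR called 0 members lower, where 0.0456% or 0.023% of all genes were, and without WT replicate 2 it called 1, where 0.729% were. Compared with WT of the overexpression experiment, this WT was lower at 26 members and higher at 16 (median difference -0.73).

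Stems with 35S:TFUL2, which drives a FRUITFULL-type MADS-box gene in place of florigen, held members that fell and members that rose. Against WT, edgeR called 11 of 38 tested members lower (5.28% of all genes) and 5 higher (7.46% of all genes), and 22 were not called. Of the 5 called higher, 2 passed the read filter only through the 35S:TFUL2 libraries, and of the 11 called lower, 1 passed it only through WT, so these 3 had to differ to be tested. Solyc10g045240 stood at 9.99 and 5.8 CPM against 54.6 and 106 CPM in WT and fell by 3.37 on the log2 scale (SE 0.45, edgeR adjusted p = 0.012). Solyc12g087940 stood at 17.5 and 13.2 CPM against 53.9 and 96.5 CPM and fell by 2.31 (SE 0.30, edgeR adjusted p = 0.011). In both cases the groups were far from overlapping. Solyc10g074440 rose from 1.37 and 1.25 CPM to 14.9 and 9.89 CPM, by log2 3.22 (SE 0.25, edgeR adjusted p = 0.0033). Solyc09g006010 rose from 2.26 and 1.32 CPM to 19.9 and 10.6 CPM, by log2 3.08 (SE 0.40, edgeR adjusted p = 0.011). Of these 4, the call of Solyc10g074440 was kept in all 9 alternatives (adjusted p 1.12e-17 to 0.024). Both falls were not called without either 35S:TFUL2 library, and that of Solyc09g006010 without replicate 1 (adjusted p over all alternatives up to 0.0901, 0.0862 and 0.051, from 1.46e-15, 3.11e-13 and 5.13e-11). Without 35S:TFUL2 replicate 1, 1 member was called lower and 1 higher (0.792% and 1.32% of all genes). Without its replicate 2 these counts were 1 and 3 (0.521% and 0.77% of all genes), and without WT replicate 1 they were 17 and 7 (6.5% and 7.79% of all genes).

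A direct comparison of both transgenic groups, added after the data were seen, called 5 of 38 tested members higher and 1 lower in 35S:TFUL2 than in 35S:SFT, where 5.21% and 3.32% of all genes were called. Of the 5, 2 passed the read filter only through the 35S:TFUL2 libraries, where they are high, and had to differ to be tested. Solyc08g080590 stood at 8.68 and 5.29 CPM in 35S:TFUL2 and 0.892 and 0.697 CPM in 35S:SFT (log2 3.12, SE 0.33, edgeR adjusted p = 0.0093). Solyc09g006010 stood at 19.9 and 10.6 and 3.26 and 2.89 CPM (log2 2.30, SE 0.38, edgeR adjusted p = 0.027). Solyc09g089620 was the member called lower, at 4.07 and 4.2 CPM in 35S:TFUL2 and 10.5 and 16 CPM in 35S:SFT (log2 -1.68, SE 0.27, edgeR adjusted p = 0.026). The groups did not overlap for any of these, and for the other 32 tested members a difference between both transgenes was not shown. The calls of Solyc09g006010 and Solyc09g089620 were lost without any 1 of the 4 libraries, and that of Solyc08g080590 without either 35S:SFT library. Without 35S:SFT replicate 1 or 2, 0 members were called higher (0.338% or 0.317% of all genes) and 0 lower (0.369% or 0.299%). Without 35S:TFUL2 replicate 1 or 2, 2 were called higher (1.68% or 0.212% of all genes) and 0 lower (0.742% or 0.249%). Over the alternatives, adjusted p ranged from 9.71e-10 to 0.0849 for Solyc08g080590, from 1.68e-06 to 0.16 for Solyc09g006010 and from 3.49e-06 to 0.174 for Solyc09g089620.

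In 35S:GinFT stems, which carry a construct named for an FT gene of Ginkgo, most members stood above and not below the WT of the FUL experiment. Of 40 tested members, 31 had a fold change above 0 and 8 below, with a median log2 fold change of 0.54 against 0.014 over all 21458 genes tested. The remaining member, Solyc05g021180, had 0 reads in all 4 libraries compared. Of the others, 2 passed the read filter only through 35S:GinFT and 1 only through WT, and none of these was called. The median was 1.21 without WT replicate 2, and between 0.42 and 1.21 when each of the 4 libraries was left out in turn. In edgeR, 5 were called higher (2.55% of all genes) and 1 lower (3.69% of all genes). Solyc09g014580 rose from 2.84 and 5.78 CPM to 31.2 and 48.8 CPM, by log2 3.22 (SE 0.46, edgeR adjusted p = 0.014). Solyc09g006010 rose from 2.26 and 1.32 CPM to 10.2 and 7.3 CPM, by log2 2.33 (SE 0.40, edgeR adjusted p = 0.022). Solyc10g074440 fell from 1.37 and 1.25 CPM to 0.509 and 0.259 CPM, by 1.73 on the log2 scale (SE 0.38, edgeR adjusted p = 0.044). Each pair of groups was separate, but 0 members were called higher or lower without 35S:GinFT replicate 1 (0.3% and 0.583% of all genes) or replicate 2 (1.05% and 1.2%). Without WT replicate 1, 3 members were called higher (1.55% of all genes), and without WT replicate 2, 10 were (2.98%), of which 2 were among the 5. The fall of Solyc10g074440 was not called without any 1 of the 4 libraries, and the rise of Solyc09g006010 was also lost without WT replicate 2. Adjusted p ranged over the alternatives from 4.23e-12 to 0.0548 for Solyc09g014580, from 1.05e-06 to 0.114 for Solyc09g006010 and from 0.00867 to 0.146 for Solyc10g074440. This group had no WT of its own, so the construct and the experiment cannot be told apart.

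**Figure D4:**
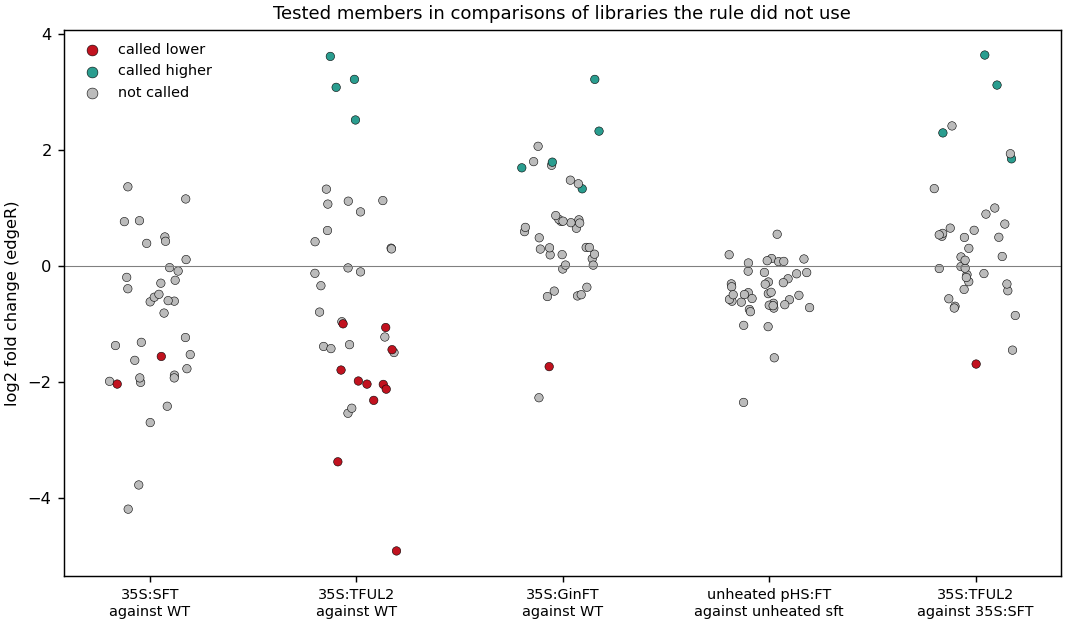
Each point is 1 tested member in a comparison of libraries the rule did not use, the vertical axis is edgeR's log2 fold change, and colour marks members called lower, called higher or not called at an adjusted p under 0.05. Calls are 2 lower for 35S:SFT, 11 lower and 5 higher for 35S:TFUL2, 1 lower and 5 higher for 35S:GinFT, 0 for unheated pHS:FT, and 1 lower and 5 higher for 35S:TFUL2 against 35S:SFT; Solyc05g021180, at 0 reads in several groups, is left out of the plot but is among those counts.

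Solyc05g021180 stood at 1.6 and 1.75 CPM in 35S:TFUL2. It was tested only because of these libraries, so its call as higher supports nothing. Its WT libraries held no reads, and with 3 reads taken as the limit of each the level was at least 14.3-fold higher. On the log2(CPM + 1) scale, 20 members had a difference of -0.4 or less in 35S:SFT against WT. In unheated pHS:FT against unheated sft 21 members did, and 11 did in both. Among rows with a mean of 1 CPM or more, 10.4% and 4.79% met the threshold in these comparisons, and 1.27% in both. The comparisons share no library, but the second has the genotypes of a contrast of the rule. Whether members low in the first tended to be low in the second was not tested, so no agreement is read from the 11.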

How the data were processed

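Raw read counts per gene, whole numbers deposited by the authors in 2 tables (34728 gene rows, and 34825 rows for the heat-shock experiment), were the start of all values. The tools named per the submitters' processing notes are HTSeq 0.6.1, TopHat2 2.1.0, FastQC 0.11.5, Bowtie2 2.2.6 and Trim Galore. Their settings, the genome build and strand use are not stated in the sources used, and overlapping and near-identical genes may share reads. Libraries were single reads of 50 bases, per the labels' protocols, with totals of 16583755 to 45790153. CPM was computed from the column totals, without length correction, so levels were compared only within a gene. All 32 library columns were used and 0 were left out.

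The members, lists and tests were chosen with earlier results of these data known. Members follow the rule on log2(CPM + 1) differences with a pseudocount of 1 and a threshold of -0.4. Comparisons of libraries outside the rule used the quasi-likelihood test of edgeR 4.0.16 in R 4.3.3 over all genes kept by filterByExpr (minimum count 10, minimum total 15), with TMM normalization, Benjamini-Hochberg adjustment over all genes and a threshold of 0.05. The 4 comparisons planned were 35S:SFT, 35S:TFUL2 and 35S:GinFT against the same WT libraries, and unheated pHS:FT against unheated sft; 35S:TFUL2 against 35S:SFT was added after the data were seen. Named members are, for each contrast of the rule, the 2 with the largest difference among those with a mean of 4 CPM or more, for each test up to 2 called in each direction with the same minimum, the member with the highest level, that with the lowest mean difference, and those beside the threshold; Solyc05g021180 was named outside this rule. Alternatives were DESeq2 1.42.0, its size factors within edgeR, no filter on low counts, fits of only the groups compared, a replicate block and leaving out each library. For fits of fewer libraries the read filter was applied anew, so the genes tested changed. The scripts were tested on simulated data; planted changes were recovered, and the share of false calls was above the nominal level when spread varied from gene to gene. The counts of replicate libraries differed by more than sampling noise in every group. Gene groups by function were not tested, because 0 identifiers matched the reference table.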

Additional observations from a re-analysis of the deposited data

How the results depend on the processing

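The number of rows that met the rule was 85 at a threshold of -0.3 and 22 at -0.5, and between 29 and 69 when 1 library was left out. It was 41 with TMM scaling, 61 and 29 with pseudocounts of 0.5 and 2, and 40 among rows with a mean of 1 CPM or more. Without each contrast in turn, alternatives chosen after seeing the data, it was 68 (pSFT-SFT), 125 (sft grafts), 97 (WT grafts) and 88 (heat shock). For 35S:SFT against WT, edgeR's 2 lower and 0 higher calls became 15 and 1 with DESeq2, 4 and 1 with no filter on low counts, and 0 lower with only the groups compared; leaving out 1 library gave 0 to 15 lower and 0 to 1 higher. For 35S:TFUL2 against WT, 7 were lower with only the groups compared, and leaving out 1 library gave 1 to 17 lower and 1 to 7 higher. For 35S:GinFT against WT, 0 were lower and 1 higher with only the groups compared, and leaving out 1 library gave 0 to 1 lower and 0 to 10 higher. For unheated pHS:FT, DESeq2 called 2 lower, and leaving out 1 library gave 0 to 0. For 35S:TFUL2 against 35S:SFT, 2 were lower with DESeq2, 3 were lower and 9 higher with only the groups compared, and leaving out 1 library gave 0 to 0 lower and 0 to 2 higher. Of all genes, 1.22% were called lower and 1.17% higher for 35S:SFT with no filter on low counts. With only the groups compared, these shares were 0.043% lower for 35S:SFT, 2.44% lower for 35S:TFUL2, and 0.517% lower and 0.314% higher for 35S:GinFT. For 35S:TFUL2 against 35S:SFT they were 7.46% lower and 9.01% higher with only the groups compared, and 5.94% lower with DESeq2. The cause of these differences between settings was not tested. Where 1 group is left with 1 library, that library is assumed to vary like the others. A strong pairing of samples by replicate number was not seen, but a weak one cannot be told from these values. Correlations of same-numbered deviations ran from -0.14 to 0.30 in the FUL and Ginkgo experiments, the highest between WT and 35S:SFT. In the heat-shock experiment they ran from -0.20 to 0.22. With the replicate number as a block, lower and higher calls were 2 (0.685%) and 0 (0.582%) for 35S:SFT. They were 9 (4.57%) and 6 (6.66%) for 35S:TFUL2, and 1 (3.1%) and 4 (2.06%) for 35S:GinFT. For unheated pHS:FT they were 0 (0%) and 0 (0%), and for 35S:TFUL2 against 35S:SFT 1 (2.87%) and 5 (4.46%). Of the other values, for named members and medians, 104 kept their side of the threshold or moved little, 34 lost their call, 15 medians moved and 0 changed direction. With 2 libraries a group, small differences were not detectable, and members near 0 reads are limited by depth.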
